A study of Mus musculus with 11 samples.

Results

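The 10 genes described here were taken by name because each belongs to the machinery by which the zona glomerulosa, the outermost steroid-making layer of the adrenal cortex, senses angiotensin II and potassium, or has been used as a marker of that layer. They are Agtr1a, Agtr1b, Dab2, Rgs4, Kcnk3, Kcnk9, Cacna1h, Cacna1d, Vsnl1 and Oca2, matched by symbol and Ensembl identifier among 49671 genes in the count table. All 10 passed the filter on low counts that left 20893 genes to test.

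Glomerulosa cells make aldosterone, the steroid that makes the kidney keep sodium. Angiotensin II binds the AT1 receptor, whose Gq-coupled signal releases stored calcium, closes potassium channels and depolarizes the cell. A small rise of plasma potassium depolarizes the same cell directly. Both stimuli open voltage-gated calcium channels, and calcium acting through calmodulin kinases switches on Cyp11b2, the aldosterone synthase. The mouse has a pair of AT1 receptor genes, Agtr1a and Agtr1b, where humans have a single one.

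RNA was sequenced from small pools of cells sorted from adrenals of male Nestin-GFP mice (strain label Nes-GFP), in which regulatory sequence of Nestin, a progenitor cell gene, drives green fluorescent protein (GFP). All groups carry this transgene and received no agent, and the cells are those with or without visible GFP, so the gate records transgene activity and not Nestin protein. Cortical cells gave 3 GFP-positive and 3 GFP-negative libraries, and medullary cells gave 3 GFP-positive and 2 GFP-negative libraries. Tissue of 6 mice went into 3 pools of 2 mice. In both cortical groups libraries 1 and 2 came from mice of about 3.5 months and library 3 from mice of about 2.5 months. Of the medullary libraries, the older mice gave GFP-positive library 1 and the whole GFP-negative group, while the younger mice gave GFP-positive libraries 2 and 3, so age and gate are partly confounded there. The labels tie no library to a mouse or pool. With 3 pools, if each held mice of a single age, some libraries of the same group share a pool. Those are either medullary GFP-positive libraries 2 and 3, or libraries 1 and 2 of the other groups. P-values thus measure only how much the libraries vary, which may in part be technical, and not how much mice or pools vary. In such bulk samples fewer cells of a type and less RNA per cell cannot be told apart.

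Total counts lay between 18500690 and 29204212 per library, and 3 counts, used as a floor, correspond to 0.104 to 0.157 CPM (counts per 1000000 reads of the scaled library size). Reads carry no molecular identifiers, so counting intervals and floors cover counting error only. The tissue labels were checked against marker lists. The summed level of 10 chromaffin markers lay between 6937 and 12326 CPM in medullary GFP-positive and between 5979 and 9504 CPM in medullary GFP-negative libraries. In the cortex it lay between 8.81 and 173 CPM in GFP-positive and between 1.14 and 5.23 CPM in GFP-negative libraries, with Dbh, Pnmt, Chgb and Scg2 at 0 in the GFP-negative group. The medullary libraries held much cortical RNA. Summed, 6 markers of steroid-making cells gave 20035 ± 7082 CPM in medullary GFP-positive (SD, n = 3) and 6922 ± 2812 CPM in medullary GFP-negative libraries (SD, n = 2). The same sums were 40583 ± 5125 and 18614 ± 465 CPM in cortical GFP-positive and GFP-negative libraries (SD, n = 3 each). By library they lay between 13133 and 27283 CPM in medullary GFP-positive cells, above every chromaffin sum there, and between 18227 and 19129 CPM in cortical GFP-negative cells. In medullary GFP-negative libraries they lay between 4933 and 8910 CPM. Levels given below for medullary cells are those of such mixtures. The part that cortical cells carried into the medullary sorts play in the results below was not tested.

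As a landmark of the zone, Cyp11b2 had 103, 62.5 and 65.7 CPM in cortical GFP-positive and 1395, 958 and 1197 CPM in cortical GFP-negative libraries. In the medulla it had 0.361, 2.89 and 0.627 CPM in GFP-positive and 568 and 399 CPM in GFP-negative libraries. Aldosterone synthase RNA was thus lower in every GFP-positive library of both tissues, and it was counted above the floor in all 11 libraries. The gate changes were -3.94 on the log2 scale in the cortex (SE 0.517, edgeR adjusted p = 0.000967) and -8.44 in the medulla (SE 0.667, edgeR adjusted p = 4.68e-05). Hsd3b6, the 3-beta-hydroxysteroid dehydrogenase of the mouse glomerulosa, overlapped between the cortical gates, at 647, 238 and 152 CPM in GFP-positive and 630, 440 and 413 CPM in GFP-negative libraries (log2 change -0.52, SE 0.523, edgeR adjusted p = 0.556). Cortical GFP-positive library 1, the highest of its group for both genes, widens that spread: without it the Hsd3b6 change was -1.36 (edgeR adjusted p = 0.0775).

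The AT1 receptor genes are near copies, and their start shows how reads can tell them apart. The first 120 coding bases of each are shown because the share of Agtr1b among AT1 reads is a main result; capitals mark the 8 positions where the copies differ. They are read 5′ to 3′ from the GENCODE M21 transcripts (GRCm38), lie in 1 exon each, and come from 13:30380954-30381073 on the plus strand and 3:20316321-20316440 on the minus strand.
Agtr1a: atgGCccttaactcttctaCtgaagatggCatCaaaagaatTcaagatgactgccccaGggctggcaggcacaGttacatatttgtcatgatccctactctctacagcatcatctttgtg
Agtr1b: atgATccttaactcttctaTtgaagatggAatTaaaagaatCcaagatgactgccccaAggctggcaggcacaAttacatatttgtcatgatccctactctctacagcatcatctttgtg
Over the whole coding sequence, 981 of 1080 bases were identical (90.8%) and 99 differed. The longest identical stretch was 66 bases, so reads inside such stretches cannot be placed, and how the authors' counting treated them is not given in the sources used here. The potassium channel paralogs Kcnk3 and Kcnk9 shared 64.8% of aligned coding bases, with no identical stretch over 20 bases.

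Agtr1a, the main AT1 receptor gene of the mouse (ENSMUSG00000049115, chromosome 13, 30336441 to 30382867, mm10, plus strand), had 565, 511 and 408 CPM in cortical GFP-positive and 1481, 1141 and 1127 CPM in cortical GFP-negative libraries. Medullary cells had 86.8, 91.3 and 63.0 CPM in GFP-positive and 535 and 294 CPM in GFP-negative libraries. The GFP-positive libraries were the lower ones in both tissues and the gates did not overlap, yet the receptor stayed well above the floor in every library. It was 2.53-fold lower in cortical GFP-positive than in GFP-negative cells (log2 change -1.34, SE 0.240, edgeR adjusted p = 0.0048) and 5.16-fold lower in the medulla (log2 change -2.37, SE 0.264, edgeR adjusted p = 0.000249). The difference between those gate changes, 1.03 on the log2 scale, missed the threshold (SE 0.352, edgeR adjusted p = 0.181).

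Agtr1b, the second AT1 gene (ENSMUSG00000054988, chromosome 3, 20314473 to 20367177, minus strand), had 7.62, 17.7 and 10.4 CPM in cortical GFP-positive and 284, 182 and 176 CPM in cortical GFP-negative libraries. In medullary GFP-positive cells it had no count in libraries 1 and 3 and 7 counts, or 0.243 CPM, in library 2, against 109 and 42.9 CPM in the medullary GFP-negative libraries. Agtr1b was therefore near absent from medullary GFP-positive cells at this depth and low, but counted in every library, in cortical GFP-positive cells. The cortical difference was 17.9-fold (log2 change -4.16, SE 0.512, edgeR adjusted p = 0.000727). The medullary log2 change was -9.47 (SE 0.783, edgeR adjusted p = 5.75e-05). It rests on the 7 counts of library 2: without that library the group has no count, so the size of the fitted change is poorly set. The gate change differed between tissues by 5.31 on the log2 scale (SE 0.959, edgeR adjusted p = 0.0302).

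The pair thus changed in unequal measure, which can be read within each library, where scaling drops out. Agtr1b gave 1.33% (95% Wilson interval 1.15 to 1.54), 3.35% (3.05 to 3.69) and 2.5% (2.20 to 2.84) of the Agtr1a plus Agtr1b reads in cortical GFP-positive libraries. It gave 16.1% (15.8 to 16.4), 13.8% (13.4 to 14.1) and 13.5% (13.1 to 13.9) in cortical GFP-negative libraries. The shares were 0% (upper bound 0.228), 0.266% (0.129 to 0.548) and 0% (upper bound 0.318) in medullary GFP-positive libraries, and 16.9% (16.3 to 17.4) and 12.7% (12.0 to 13.5) in medullary GFP-negative libraries. The GFP-negative libraries of both tissues thus held Agtr1b at a like share, 14.8% ± 2.92 in the medulla (SD, n = 2) and 14.4% ± 1.43 in the cortex (SD, n = 3), and every GFP-positive library lay below them all. Per kilobase of gene model the group means were 2.74% in cortical GFP-positive, 16.2% in cortical GFP-negative, 0.102% in medullary GFP-positive and 16.6% in medullary GFP-negative cells, in the same order.

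**Figure D1:**
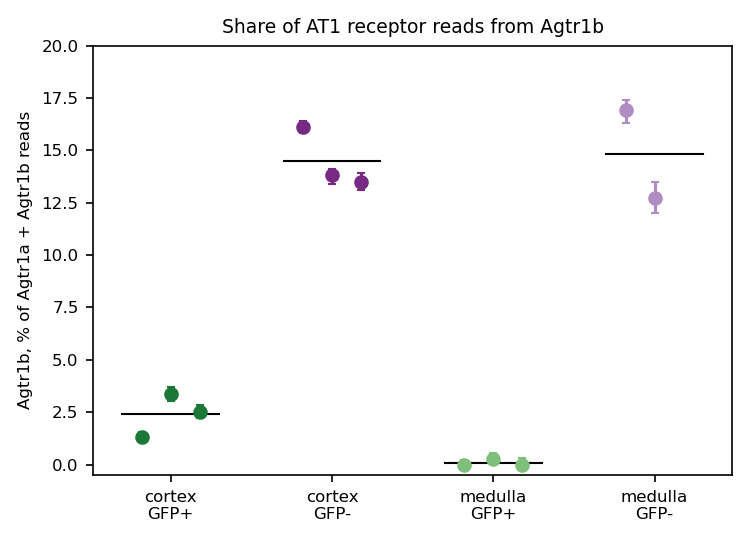
Share of Agtr1b in the reads of both AT1 receptor genes (percent, linear axis) in each library of the 4 groups; points are libraries with 95% Wilson intervals, and lines are group means. The GFP-negative libraries of both tissues lie between 12.7% and 16.9%, and the GFP-positive libraries lie at or below 3.35%.

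Dab2, an endocytic adaptor that marks the mouse zona glomerulosa and is also made by macrophages (ENSMUSG00000022150, chromosome 15, 6299788 to 6440712, plus strand), had 666, 688 and 737 CPM in cortical GFP-positive and 3702, 3183 and 3071 CPM in cortical GFP-negative libraries. Its medullary levels were 32.0, 92.2 and 64.2 CPM in GFP-positive and 2171 and 1279 CPM in GFP-negative libraries. The GFP-negative libraries of both tissues were far above the GFP-positive ones, with no overlap. Dab2 was 4.76-fold lower in cortical GFP-positive cells (log2 change -2.25, SE 0.331, edgeR adjusted p = 0.00176) and 27.4-fold lower in medullary GFP-positive cells (log2 change -4.78, SE 0.383, edgeR adjusted p = 5.01e-05). The gate change differed between tissues by 2.53 on the log2 scale (SE 0.475, edgeR adjusted p = 0.0336).

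All 8 macrophage markers listed were also lower in GFP-positive cells of both tissues. They summed to 43.1 to 170 CPM in cortical GFP-positive, 1900 to 3251 CPM in cortical GFP-negative, 202 to 491 CPM in medullary GFP-positive and 9842 to 11214 CPM in medullary GFP-negative libraries, with none of the 8 at 0 in any group. Dab2 itself was not highest where these markers were highest: its mean was 3319 ± 337 CPM in cortical GFP-negative (SD, n = 3) and 1725 ± 631 CPM in medullary GFP-negative cells (SD, n = 2). The part of macrophages in the Dab2 difference was not tested.

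Rgs4, a GTPase-activating protein that shortens Gq and Gi signals (ENSMUSG00000038530, chromosome 1, 169741477 to 169747642, minus strand), had 35.1, 67.7 and 47.7 CPM in cortical GFP-positive and 318, 419 and 285 CPM in cortical GFP-negative libraries. Medullary libraries had 58.8, 50.9 and 51.2 CPM in GFP-positive and 185 and 97.5 CPM in GFP-negative libraries. It was lower in the GFP-positive gate of both tissues without overlap, 6.79-fold in the cortex (log2 change -2.76, SE 0.297, edgeR adjusted p = 0.000397) and 2.63-fold in the medulla (log2 change -1.40, SE 0.308, edgeR adjusted p = 0.00945). The medullary call was lost without medullary GFP-negative library 1, where the change was -0.86 and the edgeR adjusted p 0.101. Unlike the receptors, Rgs4 had overlapping levels in the GFP-positive cells of cortex and medulla (log2 difference -0.10, SE 0.280, edgeR adjusted p = 0.872).

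Kcnk3, the TASK-1 potassium leak channel that holds glomerulosa cells hyperpolarized (ENSMUSG00000049265, chromosome 5, 30588170 to 30625271, plus strand), behaved otherwise. It had 1268, 1852 and 1227 CPM in cortical GFP-positive and 1145, 1084 and 950 CPM in cortical GFP-negative libraries. It had 890, 424 and 600 CPM in medullary GFP-positive and 549 and 417 CPM in medullary GFP-negative libraries. The cortical GFP-positive libraries were all slightly above the GFP-negative ones, and the medullary gates overlapped. Neither gate change passed the test, at 0.45 on the log2 scale in the cortex (SE 0.258, edgeR adjusted p = 0.274) and 0.40 in the medulla (SE 0.291, edgeR adjusted p = 0.372). Kcnk3 did differ by tissue: it was 2.27-fold higher in cortical than in medullary GFP-positive cells (log2 difference 1.18, SE 0.261, edgeR adjusted p = 0.0135).

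Kcnk9, which encodes the related TASK-3 channel (ENSMUSG00000036760, chromosome 15, 72512119 to 72546279, minus strand), was the least counted of the 10 genes, with 551 counts over all 11 libraries. It had 1.6, 1.2 and 2.66 CPM in cortical GFP-positive and 2.99, 5.47 and 2.91 CPM in cortical GFP-negative libraries. In the medulla it had 0.206, 0.417 and 0.574 CPM in GFP-positive and 2.74 and 0.934 CPM in GFP-negative libraries. The gates did not overlap in either tissue, with GFP-positive cells lower. The cortical change missed the threshold (log2 -1.06, SE 0.582, edgeR adjusted p = 0.258) and the medullary one passed it (log2 -2.19, SE 0.662, edgeR adjusted p = 0.0396). That medullary call was lost in 9 of 16 alternatives, among them leaving out any 1 medullary GFP-positive library, medullary GFP-negative library 1, or cortical GFP-negative library 2 or 3, with an edgeR adjusted p of up to 0.312. The authors' gene model for Kcnk9 is 1209 bases long, or 9.83% of the 12300 exon bases in GENCODE M21, so cDNA primed on the poly(A) tail, as here, can hold Kcnk9 reads that this model does not count.

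Cacna1h, the T-type calcium channel Cav3.2 (ENSMUSG00000024112, chromosome 17, 25374285 to 25433783, minus strand), had 25.6, 27.4 and 22.4 CPM in cortical GFP-positive and 68.7, 69.1 and 46.1 CPM in cortical GFP-negative libraries. In the medulla it had 13.2, 13.1 and 9.50 CPM in GFP-positive and 34.4 and 16.9 CPM in GFP-negative libraries. All GFP-positive libraries were below the GFP-negative ones of their tissue. The cortical change was 2.44-fold (log2 -1.29, SE 0.274, edgeR adjusted p = 0.0114). The medullary change was 2.15-fold (log2 -1.10, SE 0.301, edgeR adjusted p = 0.0259). The medullary call was lost without GFP-positive library 3 or GFP-negative library 1 and with age as a term, with an edgeR adjusted p of up to 0.293.

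Cacna1d, the L-type channel Cav1.3 (ENSMUSG00000015968, chromosome 14, 30039949 to 30491156, minus strand), ran against this pattern between tissues. It had 6.95, 5.71 and 5.22 CPM in cortical GFP-positive and 12.6, 7.56 and 7.80 CPM in cortical GFP-negative libraries. Its medullary levels were 12.7, 9.70 and 17.3 CPM in GFP-positive and 19.6 and 11.8 CPM in GFP-negative libraries, which overlapped. Neither gate change passed the test (cortex log2 -0.65, SE 0.324, edgeR adjusted p = 0.215, and medulla log2 -0.25, SE 0.356, edgeR adjusted p = 0.682). In GFP-positive cells Cacna1d was 2.22-fold lower in the cortex than in the medulla (log2 difference -1.15, SE 0.326, edgeR adjusted p = 0.0393). It was the 1 member called lower in the cortex, and the call was lost in 8 of 16 alternatives, among them leaving out any 1 cortical GFP-positive library, cortical GFP-negative library 3 or medullary GFP-positive library 1 or 3, with an edgeR adjusted p of up to 0.119. Chromaffin cells are known to use this channel, and their markers were higher in the medullary groups, but their part in this difference was not tested.

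Vsnl1, the neuronal calcium sensor visinin-like 1 (ENSMUSG00000054459, chromosome 12, 11325247 to 11436649, minus strand), which in human aldosterone-producing adenomas is linked to Cyp11b2 expression, had 34.6, 25.3 and 18.3 CPM in cortical GFP-positive and 325, 245 and 258 CPM in cortical GFP-negative libraries. In the medulla it had 0.929, 4.56 and 1.62 CPM in GFP-positive and 130 and 92.5 CPM in GFP-negative libraries. The gates were wide apart in both tissues. Vsnl1 was 10.6-fold lower in cortical GFP-positive cells (log2 change -3.40, SE 0.454, edgeR adjusted p = 0.00107) and 45.3-fold lower in medullary GFP-positive cells (log2 change -5.50, SE 0.530, edgeR adjusted p = 0.00012). The difference between those changes, 2.10 on the log2 scale, missed the threshold (SE 0.642, edgeR adjusted p = 0.137).

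Oca2, a melanosomal transport protein used as a marker of the mouse glomerulosa (ENSMUSG00000030450, chromosome 7, 56239760 to 56536518, plus strand), had 12.8, 20.2 and 15.4 CPM in cortical GFP-positive and 26.4, 37.2 and 33.6 CPM in cortical GFP-negative libraries. In medullary GFP-positive cells it had 12 counts in all, with 0, 0.139 and 0.418 CPM per library, against 16.2 and 9.38 CPM in medullary GFP-negative libraries. The cortical gates were close but apart, while the medullary GFP-positive libraries were nearly empty of it. The cortical change missed the threshold (log2 -1.01, SE 0.448, edgeR adjusted p = 0.164) and the medullary one passed it (log2 -6.11, SE 0.645, edgeR adjusted p = 0.000184). The gate change differed between tissues by 5.10 on the log2 scale (SE 0.782, edgeR adjusted p = 0.0223). With DESeq2 the cortical change passed too, at an adjusted p of 0.022. Melanocyte markers were at or near 0 throughout. The 6 listed summed to 0.0901 to 1.33 CPM in cortical GFP-positive, 0.118 to 0.991 CPM in cortical GFP-negative, 0.0516 to 2.30 CPM in medullary GFP-positive and 0.569 to 0.767 CPM in medullary GFP-negative libraries, with Tyrp1 and Slc45a2 at 0 in every group.

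**Figure D2:**
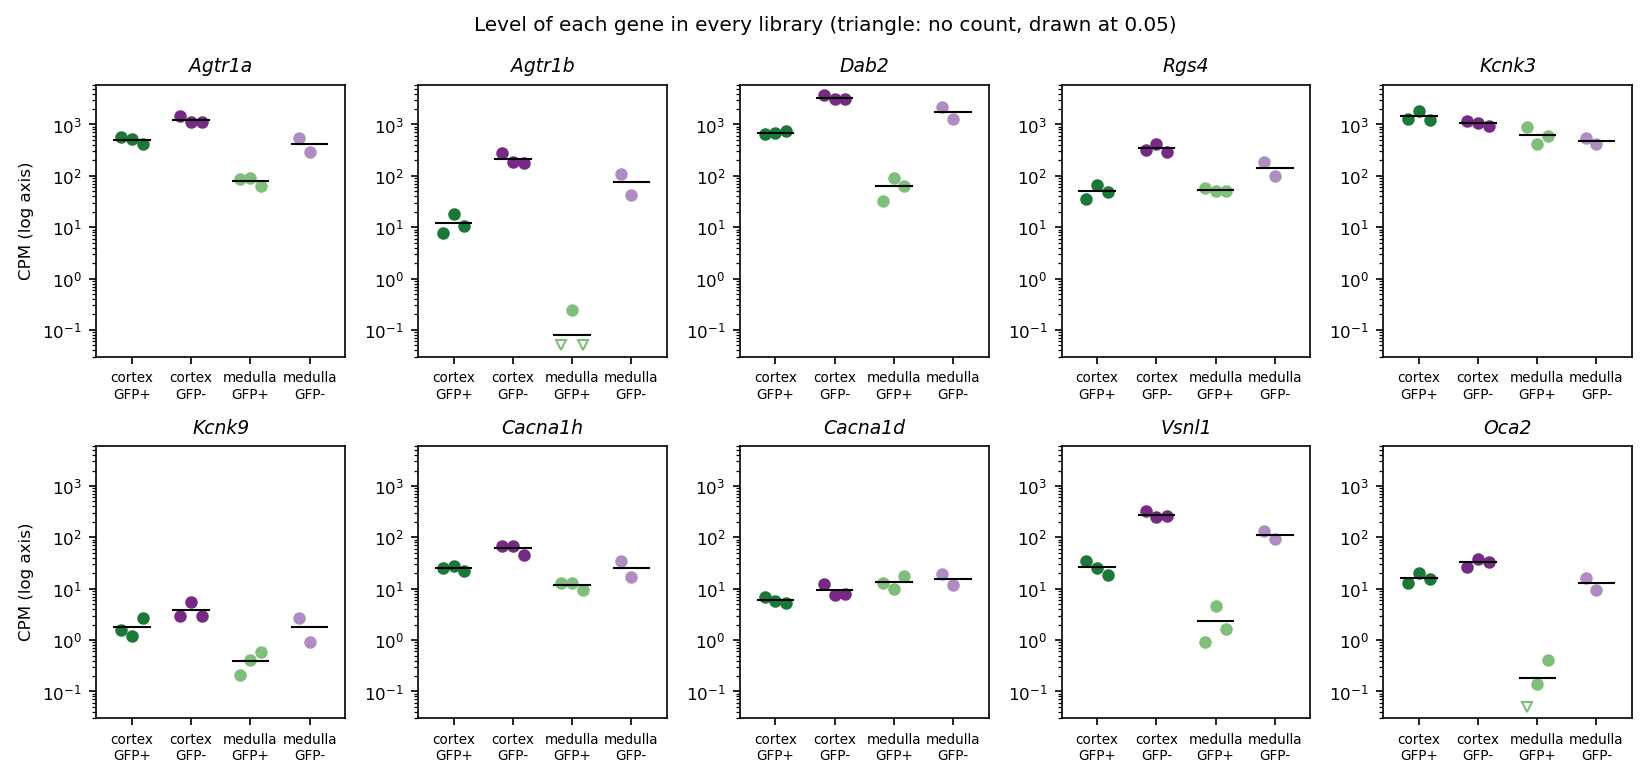
Level of each of the 10 genes in all 11 libraries, in CPM on a log axis, by tissue and gate; points are libraries, lines are group means, and open triangles mark libraries with no count. Agtr1b and Oca2 fall to or near 0 in medullary GFP-positive cells, whereas Kcnk3 stays between 417 and 1852 CPM in every library.

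Counted together, 6 of the 10 genes fell in cortical GFP-positive cells and none rose, where 7.59% of all tested genes fell and 7.14% rose. Those 6 were Agtr1a, Agtr1b, Dab2, Rgs4, Cacna1h and Vsnl1, and each of the 6 calls held in all 16 alternatives. Kcnk3, the 1 gene above 0 in both tissues, had unadjusted edgeR p-values of 0.11 and 0.197 in cortex and medulla and was called by no alternative, DESeq2 included. The cortical gates did not overlap for any of the 10: 9 were lower and Kcnk3 was higher in GFP-positive cells, where 19.4% of all genes were apart and lower and 18.8% apart and higher. In the medulla 8 fell and none rose, where 11.1% of all genes fell and 10.2% rose, and Kcnk3 and Cacna1d were the exceptions. The gates overlapped for those 2 alone, and the other 8 were apart and lower, where 22.5% of all genes were apart and lower and 25.6% apart and higher. The median log2 change of the 10 genes was -1.31 in the cortex and -2.28 in the medulla, beside 0.03 and 0.09 over all genes. Over all genes the cortical calls were 1492 higher and 1586 lower, and with total counts in place of scaled library sizes they were 1244 higher and 2032 lower.

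**Figure D3:**
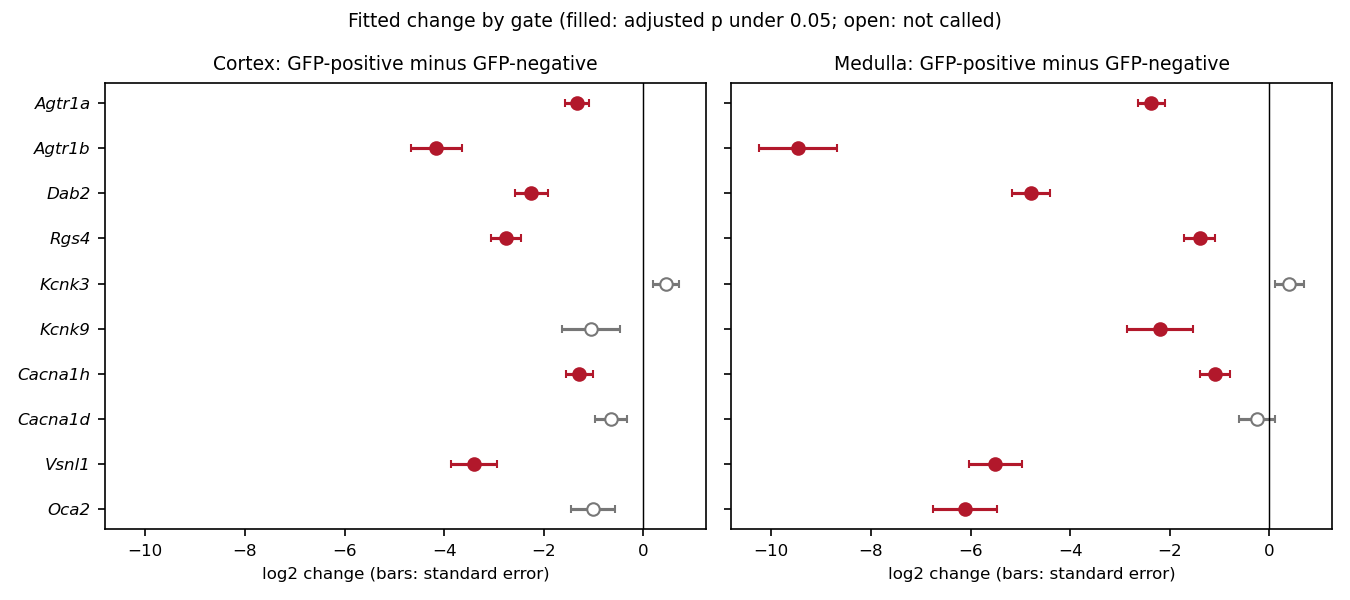
Fitted log2 change of each gene between GFP-positive and GFP-negative cells, in the cortex (left) and the medulla (right), with approximate standard errors; filled points have an adjusted p under 0.05. Changes in the cortex run from -4.16 for Agtr1b to 0.45 for Kcnk3, and in the medulla from -9.47 to 0.40 for the same genes.

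Between tissues, 8 of the 10 genes were higher in cortical than in medullary GFP-positive cells, where 6.04% of all genes were, and Cacna1d was the 1 that was lower, where 9.45% of all genes were. The tissues were apart with the cortex higher for those 8 genes, where 16.0% of all genes were, and lower for Cacna1d, where 18.5% were, and Rgs4 overlapped. Of the smaller calls, that of Kcnk9 (4.51-fold, edgeR adjusted p = 0.0402) was lost in 10 of 16 alternatives, among them leaving out cortical GFP-positive library 1 or 3 or any 1 cortical GFP-negative or medullary GFP-positive library (edgeR adjusted p up to 0.12). That of Cacna1h (2.10-fold, edgeR adjusted p = 0.0266) was lost with age as a term and without cortical GFP-positive library 1 or 2 or any 1 medullary GFP-positive library (edgeR adjusted p up to 0.0801). The largest differences were those of Agtr1b (log2 6.81, SE 0.764, edgeR adjusted p = 0.000534) and Oca2 (log2 6.44, SE 0.631, edgeR adjusted p = 0.000288). The size of the Agtr1b difference again rests on the 7 counts of medullary GFP-positive library 2. In GFP-negative cells 4 of the 10 genes were called, all higher in the cortex, where 8.06% of all genes were higher and 10.6% lower: Agtr1a, Rgs4, Kcnk3 and Cacna1h, by 3.01-fold, 2.41-fold, 2.19-fold and 2.39-fold. Of these only the Agtr1a call held in all 16 alternatives. The calls of Rgs4, Kcnk3 and Cacna1h were lost without cortical GFP-negative library 1 or 2 or medullary GFP-negative library 2. Agtr1b (log2 1.5, edgeR adjusted p = 0.0741), Dab2 (0.94, edgeR adjusted p = 0.0984), Vsnl1 (1.31, edgeR adjusted p = 0.0855) and Oca2 (1.34, edgeR adjusted p = 0.0991) missed the threshold there. The tissues were apart in GFP-negative cells for 9 of the 10 genes, with the cortex higher, where 23.4% of all genes were apart and higher and 26.1% apart and lower, and Cacna1d overlapped. These comparisons share groups with those of the gates, so their values are not independent of them.

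The test of the difference between tissues in the gate change called 3 of the 10 genes, Agtr1b, Dab2 and Oca2, all with the cortex the less negative, where 0.857% of all genes were called in that direction, 0.756% in the other and 1.61% in either. With age as a term the Agtr1b and Dab2 calls were lost (edgeR adjusted p = 0.0789 and 0.0584). All 3 were lost without cortical GFP-negative library 1, 2 or 3, with an edgeR adjusted p of 0.0516 to 0.0818. The Agtr1b call was also lost without cortical GFP-positive library 3 or medullary GFP-positive library 1 or 3, and that of Dab2 without any 1 cortical GFP-positive or medullary GFP-negative library or medullary GFP-positive library 3. Without medullary GFP-positive library 2 that group has no Agtr1b count. Under total counts the median of all genes in this comparison moved to -0.19, beside -0.02 with scaled library sizes, and the calls over all genes were 122 higher and 270 lower in place of 179 higher and 158 lower. The differences of the 3 genes under total counts were 5.11, 2.35 and 4.91.

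The genes were also set against another gene of the same cells, by dividing each gene's reads by those of Nr5a1, which encodes SF-1, the transcription factor of all steroid-making cells. This ratio was chosen after the levels had been seen and is a description. It does not stand for all steroid-cell RNA, and the ratios depend on this choice of denominator. The sum of the 6 steroid-cell markers given above, Nr5a1 among them, was apart between the gates where Nr5a1 itself overlapped. Cyp21a1, another of the 6, overlapped between the gates of each tissue as well. Nr5a1 overlapped between the gates of each tissue, with means of 305 ± 77.5 CPM in cortical GFP-positive and 285 ± 65.8 CPM in cortical GFP-negative (SD, n = 3 each), and 133 ± 32.1 CPM in medullary GFP-positive (SD, n = 3) and 141 ± 87.6 CPM in medullary GFP-negative cells (SD, n = 2).

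Kcnk3 had like ratios in all 4 groups, at 4.80 ± 0.666 reads per Nr5a1 read in cortical GFP-positive, 3.82 ± 0.775 in cortical GFP-negative, 4.70 ± 0.644 in medullary GFP-positive and 4.01 ± 1.83 in medullary GFP-negative libraries (SD). Agtr1a remained lower in the GFP-positive gate of each tissue, at 1.66 ± 0.275 in cortical GFP-positive, 4.56 ± 1.36 in cortical GFP-negative, 0.627 ± 0.203 in medullary GFP-positive and 3.19 ± 0.771 in medullary GFP-negative libraries. Between the GFP-negative groups the ratios came close for most genes. Vsnl1 had 1.01 ± 0.309 in cortical and 0.908 ± 0.376 in medullary GFP-negative libraries, Rgs4 had 1.2 ± 0.0553 in cortical and 1.08 ± 0.229 in medullary GFP-negative libraries, and Dab2 had 12.1 ± 2.98 in cortical and 13.5 ± 3.91 in medullary GFP-negative libraries. Cacna1d did not, with 0.0344 ± 0.0147 in cortical and 0.123 ± 0.0373 in medullary GFP-negative libraries. Cacna1h per Nr5a1 read was 0.0846 ± 0.0137 in cortical GFP-positive and 0.218 ± 0.0472 in cortical GFP-negative libraries, and 0.0928 ± 0.0269 in medullary GFP-positive and 0.192 ± 0.0318 in medullary GFP-negative libraries.

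**Figure D4:**
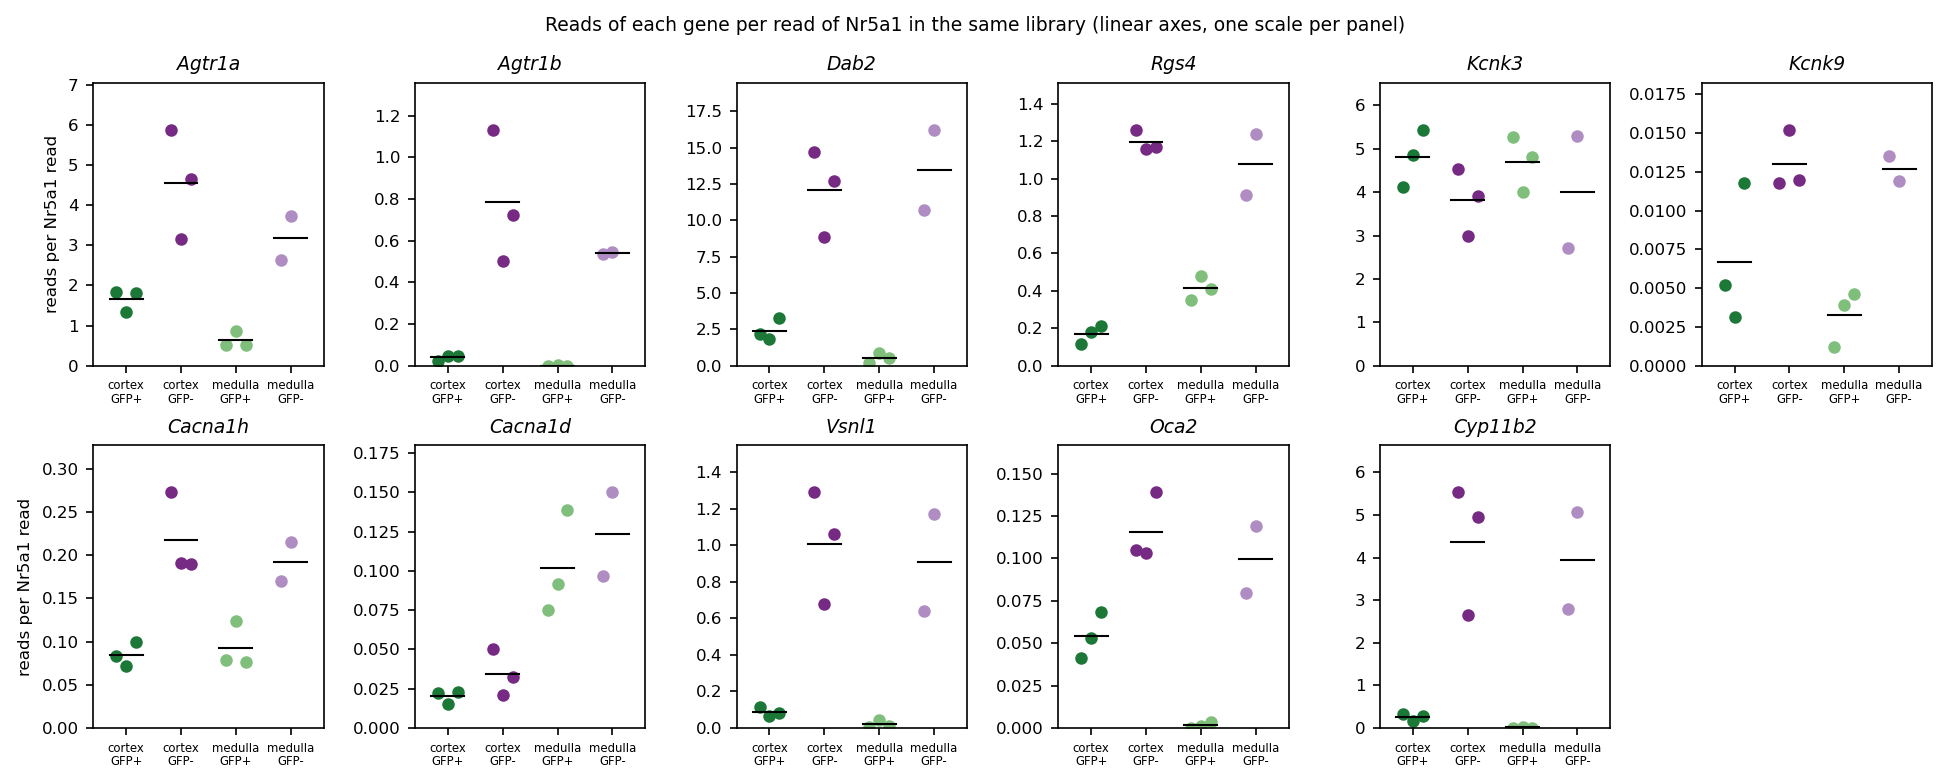
Reads of each gene per read of Nr5a1 in the same library (linear axes from 0, a scale for each panel), for the 10 genes and Cyp11b2; points are libraries and lines are group means. Kcnk3 means lie between 3.82 and 4.80 in all 4 groups, while the medullary GFP-positive points of Agtr1b, Oca2 and Cyp11b2 lie on or near 0.

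Set per kilobase of gene model, the levels of the genes can be ordered within a group. In cortical GFP-positive cells Kcnk3 led with 364 ± 87.9 CPM per kilobase, before Agtr1a with 200 ± 32.5 and Dab2 with 94.9 ± 4.92 (SD, n = 3). Rgs4 with 16.2 ± 5.30 and Vsnl1 with 13.5 ± 4.22 did not differ beyond their spread. Next came Agtr1b with 5.56 ± 2.43 and Oca2 with 4.07 ± 0.954, which overlapped as well, then Cacna1h with 2.57 ± 0.258, Kcnk9 with 1.51 ± 0.621 and Cacna1d with 0.645 ± 0.0961. In cortical GFP-negative cells Agtr1a with 506 ± 81.3 and Dab2 with 452 ± 45.9 CPM per kilobase led, within their spread of each other, and Kcnk3 followed with 266 ± 25.2. Vsnl1 with 143 ± 22.3, Rgs4 with 110 ± 22.6 and Agtr1b with 99.6 ± 28.3 CPM per kilobase were neighbours within their spread, before Oca2 with 8.18 ± 1.40 and Cacna1h with 6.28 ± 1.35, which overlapped, Kcnk9 with 3.14 ± 1.2 and Cacna1d with 1.01 ± 0.309.

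In medullary GFP-positive cells Kcnk3 led again with 161 ± 59.1 CPM per kilobase, then Agtr1a with 32.6 ± 6.16, Rgs4 with 17.3 ± 1.44 and Dab2 with 8.56 ± 4.10, and Cacna1d with 1.43 ± 0.416, Cacna1h with 1.22 ± 0.216 and Vsnl1 with 1.22 ± 0.996 stood together. Oca2 with 0.0469 and Agtr1b with 0.0378 CPM per kilobase came last, after Kcnk9 with 0.330 ± 0.153. In medullary GFP-negative cells Dab2 with 235 ± 85.9, Agtr1a with 168 ± 69.1 and Kcnk3 with 122 ± 23.4 CPM per kilobase led (SD, n = 2). Agtr1a lay within its spread of both others, while the libraries of Dab2 and Kcnk3 did not overlap. Vsnl1 with 57.5 ± 13.8, Rgs4 with 45.6 ± 20.0 and Agtr1b with 35.3 ± 21.6 CPM per kilobase followed within their spread, before Oca2 with 3.23 ± 1.21, Cacna1h with 2.63 ± 1.27, Cacna1d with 1.70 ± 0.599 and Kcnk9 with 1.52 ± 1.06. The means of both calcium channels were thus at or below 6.28 CPM per kilobase in every group. In medullary GFP-positive cells Kcnk9, Oca2 and Agtr1b were lower still. Cacna1h and Cacna1d have the longest gene models of the 10, at 9763 and 9242 bases. With cDNA primed on the poly(A) tail, reads need not grow with that length, so division by it may understate them. Gene model lengths bear on this order, since the authors' model of Cacna1d covers 73.2% of the exon bases in GENCODE M21 and that of Kcnk9 much less.

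The genes whose profile over the 11 libraries came closest were named by the root-mean-square difference of centred log2(CPM + 0.5) values. Agtr1b lay closest to Cyp11b2 (0.789), then to Vsnl1 (0.835) and Sphkap (0.874), which encodes an anchoring protein of protein kinase A. Vsnl1 lay closest to Sphkap (0.498), the carboxypeptidase gene Cpb1 (0.500) and Dab2 (0.558).
Kcnk3 had the closest neighbours with Meis2 (0.196), Gm2830 (0.205) and Chst11 (0.209), and so did Cacna1h with Steap2 (0.187), Khdrbs3 (0.206) and Slc12a2 (0.231). The nearest genes to Rgs4 were Mpped2 (0.297), Galnt18 (0.299) and Rbm24 (0.350), those to Oca2 were Gm28100 (0.486), Ctxn3 (0.509) and Nkd1 (0.550), and those to Dab2 were 2700046A07Rik (0.379), Gm28100 (0.419) and D630039A03Rik (0.499). For Agtr1a they were Apoc4 (0.271), Hmgb3 (0.293) and Gm11744 (0.299), and for Cacna1d Galns (0.230), Vps13b (0.281) and Ccdc82 (0.282). Kcnk9 was below the minimum mean of 5 CPM set for this description.

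Promoter windows of 250 bases before to 50 after the start were found in RefSeq (GRCm38.p6) for 6 of the 10 genes, in 9 windows. Searched on both strands, AAGGTCA, the core of SF-1 and NR4A sites, was in none of them and in 4.72% of 32851 promoters, and TGACGT, the core of CRE sites, was in none and in 7.51% of all. The TATA box letters TATAAA, added after the values were seen, were in windows of 3 of the 6 genes, Agtr1b, Rgs4 and Cacna1d. They were in 13.6% of all promoters, a share of promoters and not of genes. No window of Dab2, Vsnl1 or Oca2 holds them. In Cacna1d the matches start 150 to 207 bases before the transcript start, and its other window has none. In Agtr1b and Rgs4 the match starts 31 bases before the transcript start on the same strand. The 120 bases before each start are shown 5′ to 3′ on the minus strand with TATAAA in capitals, from 3:20367178-20367297 and 1:169747643-169747762. A match of letters is a description and not a shown site.
Agtr1b promoter: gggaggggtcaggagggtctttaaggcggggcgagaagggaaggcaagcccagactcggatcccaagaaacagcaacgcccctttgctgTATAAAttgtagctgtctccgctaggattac
Rgs4 promoter: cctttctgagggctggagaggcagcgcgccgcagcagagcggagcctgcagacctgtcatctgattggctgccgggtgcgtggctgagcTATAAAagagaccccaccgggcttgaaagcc
In both sequences the capitals stand at the same distance from the right-hand end, which is the base before the start.

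The 10 genes were set in their pathway with 6 lists of 91 further genes, of which 86 were tested. In the cortex 14 of these rose and 21 fell in GFP-positive cells, which is 40.7% called, where 14.7% of all genes were called in either direction. In the medulla 13 rose and 21 fell, which is 39.5% called, where 21.4% of all genes were. Their median log2 change was 0.04 in the cortex, beside 0.03 over all genes, with members called in both directions. For each list below, the shares over all genes between the cortical gates were 7.14% higher and 7.59% lower. With single libraries left out, the calls over all genes numbered 1959 to 3252, beside 3078 in the main fit.

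In the angiotensin system 2 of 11 tested genes rose and 3 fell in cortical GFP-positive cells. Agtr2, the AT2 receptor that opposes AT1, fell 12.7-fold, to 3.58 ± 2.67 CPM in GFP-positive against 45.6 ± 5.44 CPM in GFP-negative cells (SD, n = 3 each; log2 -3.67, SE 0.476, edgeR adjusted p = 0.000935). Arrb2, the beta-arrestin that internalizes receptors, fell 7.90-fold, to 2.37 ± 0.592 against 18.7 ± 3.78 CPM (SD, n = 3 each; log2 -2.98, SE 0.326, edgeR adjusted p = 0.000416). Agtrap, an AT1 receptor-binding protein that lowers its surface level, rose 3.02-fold, to 122 ± 4.12 CPM in GFP-positive against 40.3 ± 1.67 CPM in GFP-negative cells (edgeR adjusted p = 0.00164), opposite to the receptor genes.

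Among Gq and calcium release genes 4 of 15 rose and 1 fell. The one that fell was Plcb2, a phospholipase C of blood cells, at 0.457 ± 0.316 CPM in cortical GFP-positive and 6.95 ± 1.92 CPM in cortical GFP-negative cells (SD, n = 3 each; log2 -3.91, SE 0.819, edgeR adjusted p = 0.0105). Prkca, protein kinase C alpha, rose 6.29-fold, to 12.9 ± 2.07 against 2.04 ± 1.5 CPM (SD, n = 3 each; log2 2.65, SE 0.517, edgeR adjusted p = 0.00727). Plcb4, Itpr3 and Prkce were the others that rose. The calls in this list numbered 3 when library 3 of either cortical gate was left out.

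Of the 14 potassium channels and ion pumps 3 rose and 5 fell. Kcnj5, the GIRK4 channel mutated in human aldosterone-producing adenomas, had no count in the 3 cortical GFP-positive libraries and 25, 31 and 10 counts in the cortical GFP-negative ones, which is at least 18.6-fold lower when 3 counts in the whole group are taken as the floor (edgeR adjusted p = 0.0323). It had 2 counts in medullary GFP-positive and 13 in medullary GFP-negative cells, so Kcnj5 RNA was scarce everywhere. Its cortical call was lost without any 1 of the 6 cortical libraries and with age as a term, with an edgeR adjusted p of up to 0.0756. Kcnq1, a voltage-gated channel, rose 3.92-fold, to 28.6 ± 6.69 CPM in GFP-positive against 7.28 ± 2.87 CPM in GFP-negative cells (SD, n = 3 each; edgeR adjusted p = 0.0101). Atp1b1, a beta subunit of the sodium pump, was among those that fell, 2.56-fold (edgeR adjusted p = 0.00231). The calls in this list numbered 3 to 5 without cortical GFP-positive library 1 or 3 or any 1 cortical GFP-negative library. The median of the list was -0.29, and -0.65 with Kcnj5 at its bound and Kcnj3, with 1 count in cortical GFP-positive and none in cortical GFP-negative cells, left out.

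Of 13 other calcium channel subunits 1 rose and 1 fell, which is near the shares over all genes, 7.14% higher and 7.59% lower. None was called without library 1 of the cortical GFP-positive group, library 1 or 2 of the cortical GFP-negative group or medullary GFP-positive library 3, 1 without cortical GFP-positive library 2 or 3, and 4 without medullary GFP-positive library 2. Cacnb3, an auxiliary beta subunit, had 3.79 ± 1.31 CPM in cortical GFP-positive and 10.6 ± 3.80 CPM in cortical GFP-negative cells (SD, n = 3 each; log2 -1.49, SE 0.425, edgeR adjusted p = 0.0418). Its call was lost without library 1 or 3 of the cortical GFP-positive group, library 1 or 2 of the cortical GFP-negative group or medullary GFP-positive library 1 or 3, with no filter and with age as a term (edgeR adjusted p up to 0.124). Cacna1i, another T-type channel, had 14 counts in cortical GFP-positive and 1 count in cortical GFP-negative cells, or 16.4 times as many for their depth, with exact 95% counting limits of 2.49 and 692 (edgeR adjusted p = 0.0359). Its call was lost without library 1 or 2 of the cortical GFP-positive group, library 1 or 2 of the cortical GFP-negative group or medullary GFP-positive library 3, and with no filter (edgeR adjusted p up to 0.108).

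Of 24 calcium sensors and effectors 3 rose and 6 fell, and 5 were called without cortical GFP-negative library 1. Hpcal4, a relative of Vsnl1, had 4.10 ± 4.29 CPM in cortical GFP-positive and 25.8 ± 5.42 CPM in cortical GFP-negative cells (SD, n = 3 each; log2 -2.65, SE 0.730, edgeR adjusted p = 0.0359). Its call was lost without cortical GFP-positive library 1 or 2 or any 1 cortical GFP-negative library (edgeR adjusted p up to 0.102). Hpcal1, another visinin-like sensor, fell 3.70-fold (edgeR adjusted p = 0.000627). Ncs1, neuronal calcium sensor 1, went the other way at 6.04 ± 0.952 CPM in cortical GFP-positive and 0.455 ± 0.297 CPM in cortical GFP-negative cells (SD, n = 3 each; log2 3.71, SE 0.745, edgeR adjusted p = 0.00845). Camk1d, the calmodulin kinase 1 delta, fell 3.31-fold (edgeR adjusted p = 0.00798).

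Of 9 other RGS genes 1 rose and 5 fell, and the median log2 change was -0.83. Rgs14 had 0.100 ± 0.174 CPM in cortical GFP-positive and 4.11 ± 1.95 CPM in cortical GFP-negative cells (SD, n = 3 each; log2 -5.26, SE 1.11, edgeR adjusted p = 0.0109). Rgs5, a marker of pericytes that stands in the pericyte list below, had 52.2 ± 21.3 CPM in cortical GFP-positive and 0.769 ± 0.953 CPM in cortical GFP-negative cells (SD, n = 3 each; log2 6.06, SE 0.857, edgeR adjusted p = 0.00144). The list of 8 pericyte and smooth muscle markers summed to 61.8 to 230 CPM in cortical GFP-positive and 1.79 to 4.77 CPM in cortical GFP-negative libraries. Plcb2, Rgs1, Rgs10 and Rgs14 are known from immune cells, and like Arrb2 they fell where the macrophage markers fell. Whether other cell types carry these changes was not tested.

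**Figure D5:**
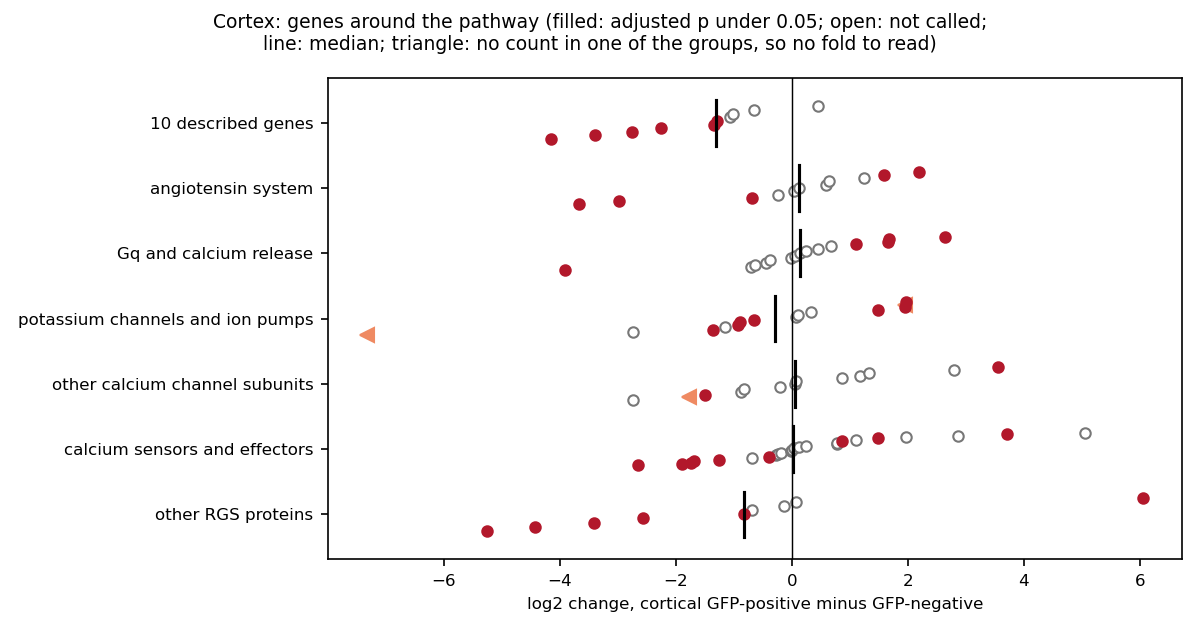
Fitted log2 change between cortical GFP-positive and GFP-negative cells for the 10 genes and for the tested genes of 6 surrounding lists; points are genes, filled where the adjusted p is under 0.05, lines are medians, and triangles mark genes with no count in 1 of the groups. The 10 genes have a median of -1.31, while the surrounding lists have medians between -0.83 and 0.14.

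The statistics of the authors' deposited table for the cortical gates match a test against an absolute log2 change of 1. That table gives adjusted p-values under 0.05 for 4 of the 10 genes. In the authors' deposited table these are Agtr1b (log2 -4.06, adjusted p = 4.8e-10), Rgs4 (log2 -2.74, adjusted p = 1.8e-07), Vsnl1 (log2 -3.32, adjusted p = 3.42e-06) and Dab2 (log2 -2.23, adjusted p = 0.00925). For the medullary gates and for the GFP-positive cells of cortex against medulla, the authors' deposited tables pass 5 genes each. Whether the statistics of those tables match the same limit was not checked. In the authors' deposited tables those are Agtr1a, Agtr1b, Dab2, Vsnl1 and Oca2 in either comparison. No share of all genes passing in the authors' tables is given beside these counts, so they are a description only.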

How the data were processed

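The authors deposited a table of counts of reads per gene, whole numbers that are not normalized, for all 11 libraries. The gene length in bases is as deposited in the same table. Per the file headers, 3 further tables hold fitted log2 changes and p-values of the authors' own comparisons. The submitters' processing notes list, without roles, the build mm10, GSNAP, DESeq2 1.18.1, DESeq, featureCounts 1.6.0 and bcl2fastq 2.19.1. The 17 deposited columns of normalized values per library were not used.

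Libraries were grouped from their titles. CPM used TMM-scaled library sizes. The 92 spike-in sequences, with 10 counts in all, were left out. Genes kept by filterByExpr were tested with edgeR 4.0.16 (R 4.3.3) by the quasi-likelihood test on 1 fit of 4 groups, with 7 residual degrees of freedom and a common biological coefficient of variation of 0.479. P-values were adjusted after Benjamini and Hochberg over 20893 genes within each of 5 comparisons, at a threshold of 0.05. The SE is approximate, as the size of the log2 change over the root of its F statistic. The test was checked on simulated data. Alternatives were total counts, no filter, DESeq2 1.42.0, a replicate block, age as a term, and leaving out each library.

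The 10 genes, the lists and the tests were chosen with earlier results of these data known. Genes named beside the 10 were Cyp11b2, Hsd3b6, Kcnj5, the 2 genes of each list with the largest change among those called in the cortex, and the 3 nearest profiles. Agtrap, Atp1b1, Plcb4, Itpr3, Prkce, Hpcal1, Camk1d, Rgs1, Rgs10 and the ratio to Nr5a1 were added after their values were seen. Coding sequences were aligned with Biopython 1.88. The protocol marks no strand, so reads of Dab2, Kcnk3, Cacna1h and Cacna1d cannot be told from those of genes on the other strand whose exons overlap 2.87%, 5.76%, 1.62% and 4.67% of theirs. Every pair of libraries within a group differed beyond counting noise (chi-square over its degrees of freedom, 27.0 to 94.1), so none was taken as a library deposited again; this does not show that they come from separate animals.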

Additional observations from a re-analysis of the deposited data

Results flagged for a closer look

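For 3 of the 10 genes a test of the difference between tissues in the gate change passed the threshold. The log2 difference of the gate changes, cortex minus medulla, was 5.31 for Agtr1b (edgeR adjusted p = 0.0302), 2.53 for Dab2 (edgeR adjusted p = 0.0336) and 5.10 for Oca2 (edgeR adjusted p = 0.0223). In each case GFP-positive cells were lower in both tissues, in 3 of 3 libraries each, and the gap was wider in the medulla. For Agtr1b and Oca2 the medullary GFP-positive group held 7 and 12 counts in all, so the size of that gap is set by few counts. All 3 calls were lost without any 1 cortical GFP-negative library (edgeR adjusted p = 0.0516 to 0.0818). With age as a term the differences were 5.14, 2.83 and 5.31 for Agtr1b, Dab2 and Oca2 (edgeR adjusted p = 0.0789, 0.0584 and 0.0488). Medullary GFP-positive library 1, of the same age as both GFP-negative libraries, had no count of Agtr1b or Oca2 and 32.0 CPM of Dab2. A single library cannot tell age from gate, which are partly confounded in the medulla, and the part of age was not tested.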

How the results depend on the processing

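The 6 cortical calls among the 10 genes, and the medullary calls of Agtr1a, Agtr1b, Dab2, Vsnl1 and Oca2, held under every alternative run. With DESeq2, 8 of the 10 genes were called between tissues in GFP-negative cells. There DESeq2 called 2208 of 20893 genes higher and 3130 lower in the cortex, where the main fit called 1683 higher and 2209 lower. In the difference of gate changes DESeq2 called 5 of the 10, with 1559 genes in all. That comparison called 1 of the 10 with the replicate block (176 genes in all) and 1 of the 10 with age as a term (93 in all); the causes were not tested.

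Leaving out single libraries gave 1959 to 3252 called genes and 6 of the 10 for the cortical gates, 2956 to 4390 and 5 to 8 for the medullary gates, and 2006 to 3370 and 6 to 9 for the tissues in GFP-positive cells. It gave 1411 to 4045 genes and 1 to 7 of the 10 for the tissues in GFP-negative cells, and 56 to 489 genes and 0 to 4 of the 10 for the difference of gate changes. For the medullary gates the fewest of the 10 were called without medullary GFP-negative library 1. For the tissues in GFP-positive cells this was so without cortical GFP-positive library 1 or medullary GFP-positive library 1 or 3. For the tissues in GFP-negative cells it was so without cortical GFP-negative library 1 or 2 or medullary GFP-negative library 2. The low of 0 for the difference of gate changes came without any 1 cortical GFP-negative library. Leaving out a medullary GFP-negative library leaves 1, which is then assumed to vary like the other groups.

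Direction turned only for changes that had not passed the test. Kcnk3 in the difference of gate changes was -0.13 with total counts, 0.00 with the replicate block and -0.22 with age as a term, and -0.17 to 0.37 with single libraries left out (below 0 without cortical GFP-positive library 2, cortical GFP-negative library 3, medullary GFP-positive library 2 or medullary GFP-negative library 1). With single libraries left out, Cacna1d between the medullary gates was -0.57 to 0.17 (above 0 without medullary GFP-negative library 1), Rgs4 between tissues in GFP-positive cells was -0.35 to 0.11 (above 0 without cortical GFP-positive library 1), and Cacna1h in the difference of gate changes was -0.79 to 0.24 (above 0 without medullary GFP-negative library 2).

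Libraries with the same number share no stated animal, so the numbers were not taken as pairs. Their deviations from the group means correlated at -0.01 to 0.10, which with so few libraries per group cannot exclude shared pools. With the block the calls lost among the 10 were Kcnk9 between the medullary gates and between tissues in GFP-positive cells, and Agtr1b and Dab2 in the difference of gate changes. Of the genes named from the lists, Kcnj5, Cacnb3 and Cacna1i lost their cortical calls with it. Depth limits Kcnk9, Kcnj5 and Cacna1i, and Agtr1b and Oca2 in medullary GFP-positive cells, with few or no counts in some libraries.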

Other observations

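Marker lists of other zones and cell types were also compared between the gates, beside the macrophage and pericyte lists given above, and not all of them differed. The 5 zona fasciculata markers, genes of the glucocorticoid-making layer, summed to 17048 ± 3107 CPM in cortical GFP-positive and 4493 ± 507 CPM in cortical GFP-negative libraries (SD, n = 3 each). Of those markers Cyp11b1, Mrap and Abcb1b rose in cortical GFP-positive cells and Mc2r, the ACTH receptor, fell. Akr1b7, the largest part of both sums, was apart and higher but not called (edgeR adjusted p = 0.085). It had 7995 ± 3142 CPM in cortical GFP-positive and 2460 ± 528 CPM in cortical GFP-negative libraries (SD, n = 3 each). Abcb1b had 2941 ± 271 CPM in cortical GFP-positive and 39 ± 5.75 CPM in cortical GFP-negative libraries (SD, n = 3 each). It had 2815 ± 1092 CPM in medullary GFP-positive (SD, n = 3) and 27.4 ± 1.08 CPM in medullary GFP-negative libraries (SD, n = 2). Abcb1b thus followed the gate in both tissues, and the part of the zone in the summed difference was not tested. The 4 zona glomerulosa markers summed to 503 ± 285 CPM in cortical GFP-positive and 1960 ± 333 CPM in cortical GFP-negative libraries (SD, n = 3 each). Cyp11b2 and Wnt4 were called lower, while Hsd3b6 and Shh were not called (edgeR adjusted p = 0.556 and 0.0587). In the GFP-positive and GFP-negative sums Cyp11b2 had means of 77 and 1183 CPM, and Hsd3b6 had 345 and 495 CPM.

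The 8 Schwann cell and glia markers summed to 198 to 291 CPM in cortical GFP-positive and 2.95 to 10.8 CPM in cortical GFP-negative libraries, and 7 of the 8 rose. The 7 endothelial markers summed to 69.2 to 199 CPM in cortical GFP-positive and 63.6 to 176 CPM in cortical GFP-negative libraries, which overlap. The 8 capsule and fibroblast markers summed to 112 to 176 CPM in cortical GFP-positive and 74.8 to 117 CPM in cortical GFP-negative libraries, which overlap. Of these only Lum was called, and it rose. Nr2f2, the most abundant of the 8, had 65.2 ± 10.9 CPM in cortical GFP-positive and 78 ± 12.6 CPM in cortical GFP-negative libraries (SD, n = 3 each; edgeR adjusted p = 0.331). The 6 lymphocyte markers stayed at or below 0.223 CPM in sum in every cortical library. The part of these cells in the differences of the 10 genes was not tested.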
